A study of Mus musculus with 30 samples.

Results

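The 10 genes Nodal, Tdgf1, Acvr2b, Smad2, Smad3, Foxh1, Lefty1, Lefty2, Cer1 and Smad7 are core components of the Nodal and Activin signalling pathway. They were chosen by name from the 29555 genes of the deposited gene tables, and all 10 were found there. The ATAC-seq peaks that lay in one of these genes or within 10 kb of either end were added: 84 of 158917 peaks in the table of epiblast stem cells (EpiSCs) and definitive endoderm (DE), and 94 of 181059 in the table of EpiSCs alone. EpiSCs are derived from the epiblast after implantation and can form all germ layers, and DE is the germ layer that forms the gut and its organs.

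C57BL/6 (B6) cells were measured in both states by RNA-seq (5 EpiSC and 4 DE libraries) and by ATAC-seq (4 and 4). EpiSCs of PWK/PhJ (PWK; 3 RNA-seq and 2 ATAC-seq libraries), of B6.129 F1 (F1; 3 RNA-seq libraries) and of DBA/2J (DBA; 1 library of each kind) were measured as well. Per the labels, every EpiSC group was kept on feeder cells in a medium with Fgf2, ActivinA and NVP-TNKS656, an inhibitor of Wnt signalling, so the baseline already contains a ligand of the pathway. DE was made in a first step of 16 h with CHIR99201 (spelled as in the labels) and ActivinA and a second step of 24 h with ActivinA and the BMP inhibitor LDN193189, and CXCR4+ cells were taken with magnetic beads. EpiSCs were lifted with collagenase and DE cells with accutase, and the effects of state, sort and enzyme cannot be told apart. The labels give 46 h in all, which is more than both steps together. The labels speak of biological replicates without saying whether these are separate lines or separate cultures, so p-values measure the spread between these libraries.

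Nodal is a secreted factor of the TGF-beta family that patterns the early embryo. It binds type II receptors such as Acvr2b and the type I receptor Acvr1b, and needs a co-receptor such as Tdgf1 (also called Cripto), whereas Activin uses the same receptors without it. The receptors phosphorylate Smad2 and Smad3, which enter the nucleus with Smad4 and act at DNA with partners such as Foxh1. Strong signalling directs epiblast cells to endoderm, weaker signalling keeps the epiblast state, and the pathway switches on its own inhibitors: Lefty1, Lefty2 and Cer1 outside the cell and Smad7 inside it.

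Total counts ran from 22829536 to 66563933 in the RNA-seq libraries and from 3751526 to 9571127 in the ATAC-seq libraries. All 7 definitive endoderm marker genes (Sox17, Foxa2, Cxcr4, Gata6, Gata4, Hhex and Gsc, with Cxcr4 used for the sort) were called higher in DE, and their summed level was 2686 to 3537 CPM (counts scaled to a common library size) in DE and 27.7 to 151 in B6 EpiSCs. Of 7 EpiSC markers, 4 fell and 2 rose, and their sums overlapped, at 2984.5 to 3981 CPM in DE and 2753 to 4096 CPM in B6 EpiSCs. The 8 feeder fibroblast markers summed to 66.4 to 2650 CPM in B6 EpiSCs and to 58.4 to 235 CPM in DE, and all 8 fell. None of these 8 was at 0 in all libraries of a group. Visceral endoderm markers summed to at most 18.5 CPM, and mesoderm markers to 28.7 to 63.9 CPM in DE against 6.78 to 17.6 CPM in B6 EpiSCs. Of the mesoderm markers only 3 were tested, and 1 was called higher in DE and 2 lower.

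The RefSeq promoter table of build GRCm38.p6 held 5 of the 10 genes: Nodal, Tdgf1, Cer1, Smad3 and Acvr2b. Lefty1, Lefty2, Foxh1, Smad2 and Smad7 are not in it. The 250 bases upstream of the start are printed for the 4 genes whose RNA changed, because the accessibility of these windows can be set beside the RNA below. Tdgf1 is an exception in the comparison of DE and EpiSCs, where no peak covered its start. Capitals mark the letters CAGAC, a core of sites bound by Smad proteins, or their reverse complement GTCTG, and each sequence runs 5′ to 3′ on the gene's own strand.
Nodal, chr10:61417722-61417971, plus strand: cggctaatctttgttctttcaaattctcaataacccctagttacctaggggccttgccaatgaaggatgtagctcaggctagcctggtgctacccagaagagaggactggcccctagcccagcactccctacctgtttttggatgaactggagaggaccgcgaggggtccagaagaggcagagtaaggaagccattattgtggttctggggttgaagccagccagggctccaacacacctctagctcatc
Cer1, chr4:82885152-82885401, minus strand: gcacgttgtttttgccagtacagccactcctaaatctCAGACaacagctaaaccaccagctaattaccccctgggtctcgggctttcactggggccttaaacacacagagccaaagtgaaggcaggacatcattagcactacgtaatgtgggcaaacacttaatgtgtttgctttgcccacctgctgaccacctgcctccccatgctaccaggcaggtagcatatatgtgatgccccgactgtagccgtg
Tdgf1, chr9:110946159-110946408, minus strand: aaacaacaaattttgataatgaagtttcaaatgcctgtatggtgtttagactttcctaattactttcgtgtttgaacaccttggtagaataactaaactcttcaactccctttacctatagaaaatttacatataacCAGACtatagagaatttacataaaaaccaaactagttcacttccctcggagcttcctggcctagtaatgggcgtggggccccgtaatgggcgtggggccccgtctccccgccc
Acvr2b, chr9:119401928-119402177, plus strand: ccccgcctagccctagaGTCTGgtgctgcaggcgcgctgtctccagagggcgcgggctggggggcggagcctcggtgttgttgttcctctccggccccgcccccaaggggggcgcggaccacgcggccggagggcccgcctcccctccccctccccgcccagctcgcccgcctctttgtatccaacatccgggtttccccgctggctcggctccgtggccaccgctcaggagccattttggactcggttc

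The windows of Cer1, Tdgf1 and Acvr2b each held CAGAC once on either strand, and those of Nodal and Smad3 held none. The letters occur in 42.2% of 32851 promoter windows of this length. Neither AATNCACA, the letters of a Foxh1 site, nor TCACAC, those of a T-box site, was found on either strand in the 5 windows; 3.18% and 12.3% of all windows hold them. Matches to these 2 motifs can overlap each other. A match or its absence describes only the letters of the window.

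In DE against B6 EpiSCs, the extracellular inhibitors Lefty1, Lefty2 and Cer1 and the receptor Acvr2b rose by more than any other of the 10 genes. Nodal and Foxh1 rose by smaller factors. The co-receptor Tdgf1 and the inhibitory Smad7 fell. Smad2 and Smad3, the transducers themselves, were not called. Genes were called where edgeR's quasi-likelihood test, adjusted over all 14085 genes tested, gave a p under 0.05. By this rule 6 of the 10 genes rose and 2 fell, and the groups did not overlap for these 8. Of all genes tested, 31.5% were called higher and 30.6% lower, and 55.6% had groups that did not overlap; the 8 calls among 10 are to be read against these shares. In bulk samples, fewer cells of a type and less RNA per cell cannot be told apart. No gene lengths are at hand, so levels are compared within a gene and not between genes.

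**Figure D1:**
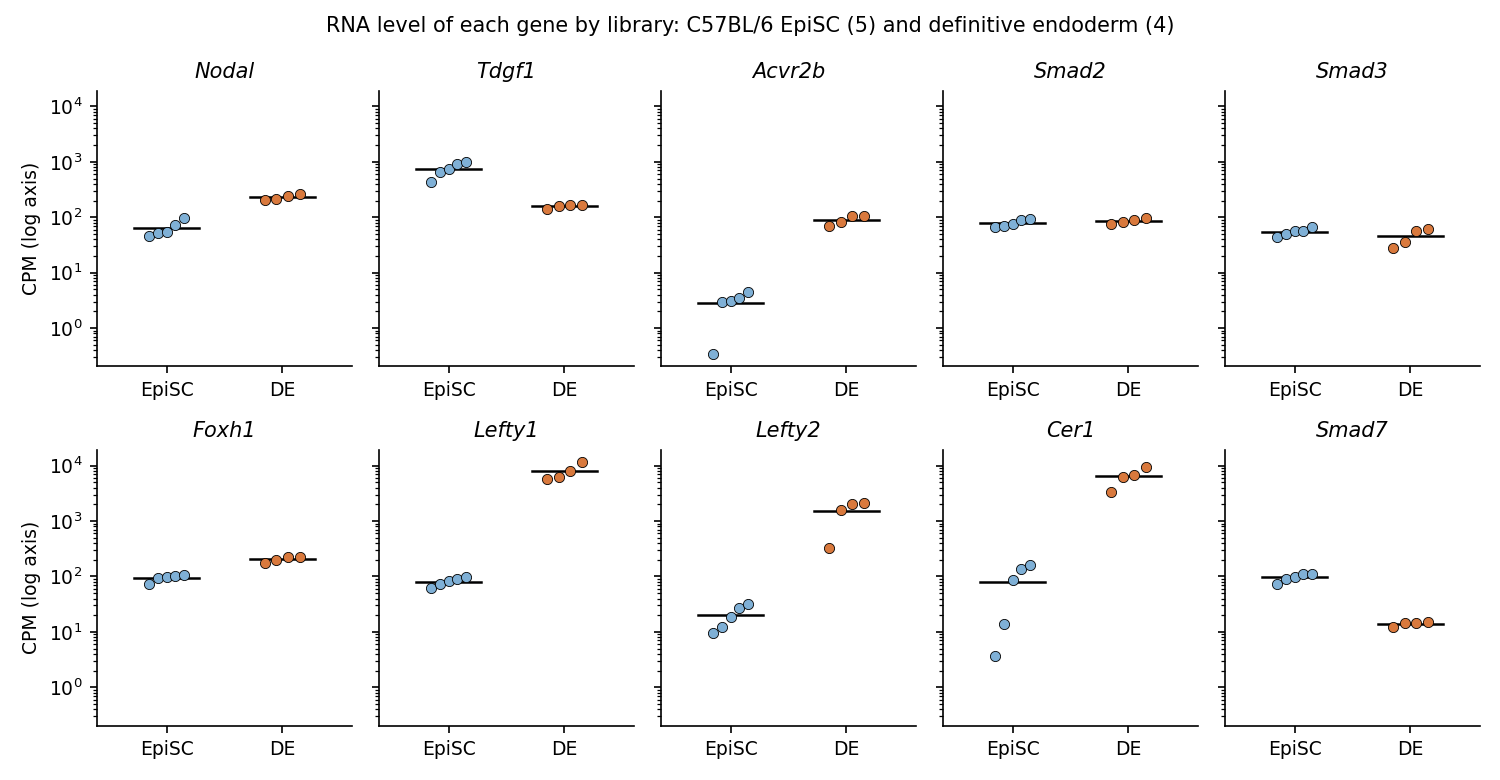
CPM on a log axis for each of the 10 genes in 5 EpiSC libraries (blue) and 4 DE libraries (orange) of B6, with the group mean as a line and the libraries of a group drawn in order of level. The groups are apart for every gene except Smad2 and Smad3.

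Nodal (ENSMUSG00000037171, chr10:61417972-61425338) stood at 54.9, 73.3, 45.9, 52.6 and 98.2 CPM in B6 EpiSC replicates 1, 2, 4, 44 and 51, and at 259.8, 205, 244 and 210.0 CPM in DE replicates 2, 4, 44 and 51. Every DE library was above every EpiSC library, and EpiSC replicate 51 was the highest of its group. The means were 65.0 ± 21.1 CPM (SD, n = 5) and 229.5 ± 26.6 CPM (SD, n = 4), 3.53-fold apart, with a log2 change of 1.82 (SE 0.22, adjusted p = 5.77e-05).

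Tdgf1 (ENSMUSG00000032494, chr9:110939608-110946158), the co-receptor that Nodal needs, went the other way. Its level in the 5 EpiSC libraries, in the same order, was 994, 645, 746, 436 and 906 CPM. In DE it was 158, 168, 140 and 165 CPM, below every EpiSC library and with little spread. The log2 change was -2.24 (SE 0.23, adjusted p = 2.12e-05), 4.72-fold by the means of 745 ± 220 (SD, n = 5) and 158 ± 12.5 CPM (SD, n = 4). Tdgf1 has a processed copy, Tdgf1-ps1, to which 1, 515, 23, 1273 and 3 counts were given in the 5 EpiSC libraries and 5 to 224 in DE. The split of reads between gene and copy is therefore uncertain, although Tdgf1 itself had 13479 to 26210 counts in these EpiSC libraries.

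Acvr2b (ENSMUSG00000061393, chr9:119401583-119442148), a type II receptor of Nodal and Activin, was low in EpiSCs and rose in DE. It measured 0.34 CPM (9 counts) in EpiSC replicate 1 and 2.99 to 4.43 CPM (81 to 137 counts) in the other 4, against 104, 83.1, 103 and 70.1 CPM in DE. The fold between the means was 31.5, with a log2 change of 4.97 (SE 0.52, adjusted p = 2.33e-05). Without EpiSC replicate 1 the log2 change was 4.68.

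Smad2 (ENSMUSG00000024563, chr18:76241090-76311748) and Smad3 (ENSMUSG00000032402, chr9:63646766-63757994) carry the signal from the receptors to the nucleus. Smad2 ranged from 68.0 to 94.8 CPM in EpiSCs and from 74.5 to 95.7 CPM in DE (log2 change 0.12, SE 0.15, adjusted p = 0.483). Smad3 ranged from 44.6 to 66.4 CPM in EpiSCs, and DE was split between replicates 2 and 44 at 27.9 and 35.4 CPM and replicates 4 and 51 at 60.98 and 55.9 CPM. These pairs also differed in total counts, with 22829536 and 25410448 in replicates 2 and 44 and 59995667 and 66563933 in replicates 4 and 51. Nodal, Acvr2b, Smad2, Lefty1, Lefty2 and Tdgf1 were divided between the same pairs in DE, in either direction, while Foxh1, Cer1 and Smad7 were not. The part of sequencing depth in this split was not tested. The log2 change of Smad3 was -0.28 (SE 0.24, adjusted p = 0.329), and for Smad2 and Smad3 the groups overlapped. Messenger levels say nothing of phosphorylation, through which these proteins are activated.

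Foxh1 (ENSMUSG00000033837, chr15:76667829-76671614), the DNA-binding partner of the Smads, measured 74.6, 108, 104, 97.1 and 94.9 CPM in EpiSCs and 198, 227, 223 and 176 CPM in DE. The rise was uniform over the libraries (log2 change 1.11, SE 0.14, adjusted p = 8.37e-05). Kifc2, which overlaps Foxh1 in the annotation, had 0 to 58 counts in these EpiSC libraries and 410 to 809 in DE, and since the use of strand in counting is not stated, a part of the Foxh1 counts could belong to it.

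Lefty1 (ENSMUSG00000038793, chr1:180935022-180938401) and Lefty2 (ENSMUSG00000066652, chr1:180893108-180899107) encode secreted proteins that block Nodal and its co-receptor. Lefty1 measured 99.0, 60.9, 74.0, 88.4 and 82.1 CPM in EpiSCs and 11511, 6321, 8174 and 5861 CPM in DE. The fold between the means was 98.5 (log2 change 6.62, SE 0.26, adjusted p = 2.99e-07), the 62nd largest rise of the 14085 genes. Lefty2 measured 32.1, 12.5, 27.0, 18.7 and 9.64 CPM in EpiSCs and 2031, 1579, 2082 and 323 CPM in DE (log2 change 6.23, SE 0.60, adjusted p = 1.34e-05). DE replicate 51 therefore had much less Lefty2 than the other 3, while its Lefty1 was close to that of replicate 4. The 2 genes are close paralogs that lie side by side, so the split of reads between them is uncertain.

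Cer1 (ENSMUSG00000038192, chr4:82881751-82885151), a secreted inhibitor of Nodal, BMP and Wnt proteins, was the most uneven of the 10 genes within EpiSCs. It measured 161, 14.1, 139, 86.8 and 3.62 CPM in EpiSC replicates 1, 2, 4, 44 and 51. The DE libraries measured 6156, 6722, 9591 and 3408 CPM, again lowest in replicate 51. The log2 change was 6.32 (SE 1.00, adjusted p = 3.17e-04), and it ran from 6.01 to 6.73 when each library was left out in turn. The order of the EpiSC libraries in Cer1 was that of their definitive endoderm marker sums, which were 151, 54.4, 118, 107 and 27.7 CPM in replicates 1, 2, 4, 44 and 51; the part of these markers in the Cer1 values was not tested.

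Lefty1, Lefty2 and Cer1 together took 1.53 ± 0.442% of all counts in DE (SD, n = 4; range 0.950 to 2.00%) and 0.0188 ± 0.00946% in B6 EpiSCs (SD, n = 5).

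Smad7 (ENSMUSG00000025880, chr18:75367365-75395935), an inhibitory Smad that blocks the activated receptor, fell while the extracellular inhibitors rose. It measured 88.9, 97.4, 73.9, 109 and 112 CPM in EpiSCs and 14.2, 14.8, 14.3 and 12.2 CPM in DE. The fall was 6.91-fold by the means (log2 change -2.79, SE 0.16, adjusted p = 8.92e-07). The groups did not overlap, and the spread in DE was small (SD 1.13 CPM, n = 4).

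The feeder marker sums moved with this comparison: 66.4, 1122, 385, 1033 and 2650 CPM in EpiSC replicates 1, 2, 4, 44 and 51. EpiSC replicate 1 lay within the range of the DE libraries in these markers. The part of feeder RNA in the differences was not tested. Without EpiSC replicate 51, the library with the largest feeder sum, 6 genes were again called higher and 2 lower.

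Among other genes of the pathway, 51 of 54 listed were tested; 19 rose, 15 fell and 17 were not called. Over all genes tested, 31.5% rose and 30.6% fell, and the list counts below are to be read against these shares. The lists below were drawn up from textbook knowledge of the pathway, with earlier results of these data known. Known targets of the pathway rose most: 9 of 12 rose and 2 fell. Their log2 changes had a median of 2.84, against -0.01 over all genes tested. The leading ones were Sox17, a regulator of endoderm, from 5.82 ± 4.43 to 1301 ± 145 CPM (SD, n = 5 and 4; log2 change 7.80), Gsc, a regulator of the anterior streak (log2 change 6.30), and Fgf8, a growth factor of the streak (log2 change 5.59). Sox17, Gsc, Foxa2 and Hhex, 4 of the 9 that rose, are also among the endoderm markers, so their rise is no separate evidence on the pathway, and whether the other 5 are separate from the change of cell state was not tested. Nanog (log2 change -3.05) and T (log2 change -5.02) were the 2 targets that fell. Nanog is among the EpiSC markers, as are the targets Fgf5 (log2 change 2.91) and Otx2 (log2 change 1.83), which rose. T marks the early streak, and Fgf8, also a gene of the streak, rose. The part of the change of cell state in these values was not tested.

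Receptors and ligands moved in different directions. Of 6 receptors and co-receptors tested, 2 rose and 2 fell (median log2 change 0.08). Cfc1, a co-receptor related to Tdgf1, rose from 6.49 ± 5.93 to 252 ± 95.6 CPM (SD, n = 5 and 4; log2 change 5.28, adjusted p = 5.94e-04). The 2 co-receptors of Nodal thus changed in opposite directions. Acvr1b, the type I receptor, fell from 56.5 ± 6.72 to 14.6 ± 3.62 CPM (SD, n = 5 and 4; log2 change -1.95, adjusted p = 1.55e-05), opposite to the type II receptor Acvr2b. Acvr2a, also a type II receptor, was present in both states and not called. It measured 29.0 ± 1.64 CPM in EpiSCs and 35.3 ± 10.4 CPM in DE (SD, n = 5 and 4, log2 change 0.28, adjusted p = 0.244). Tgfbr3, a co-receptor for TGF-beta ligands, rose (log2 change 2.64), and Tgfbr1 fell (log2 change -0.82).

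Of 8 ligand and processing genes tested, 1 rose and 3 fell (median log2 change -0.13). Tgfb2 rose (log2 change 1.59), and Pcsk6, a protease that cleaves Nodal precursor, fell (log2 change -1.90). Inhba, which encodes a subunit of Activin, fell on average (log2 change -3.73, adjusted p = 0.00807), but its groups overlapped. Its EpiSC values of 1.78, 13.3, 6.89, 20.8 and 58.4 CPM in replicates 1, 2, 4, 44 and 51 were lowest and highest in the libraries with the lowest and highest feeder sums, and the part of feeder RNA was not tested.

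Smads and nuclear partners held 4 that rose and 3 that fell among 9 (median log2 change 0.65). Mixl1, a homeobox factor of the endoderm and mesoderm precursors, rose (log2 change 3.88), while the coactivator Ep300 (log2 change -2.02) and Zfyve9, which presents Smad2 to the receptor (log2 change -1.92), fell. Smad4 rose by 0.66. Of 10 feedback genes and repressors, 2 rose and 4 fell (median log2 change -0.52). Bambi, a decoy receptor, rose from 9.14 ± 1.25 to 207 ± 26.2 CPM (SD, n = 5 and 4; log2 change 4.50, adjusted p = 2.99e-07), Pmepa1 rose (log2 change 1.86), and the repressor Ski fell (log2 change -1.82). Of 6 genes listed under extracellular antagonists, 1 rose and 1 fell (median log2 change -0.25). The list is broader than its heading, as it also holds Nomo1, a membrane protein inside the cell, and latent TGF-beta binding proteins. Dand5, an inhibitor of Nodal at the node, reached only 2.30 CPM (log2 change 5.44), and Nomo1 fell (log2 change -0.80).

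**Figure D2:**
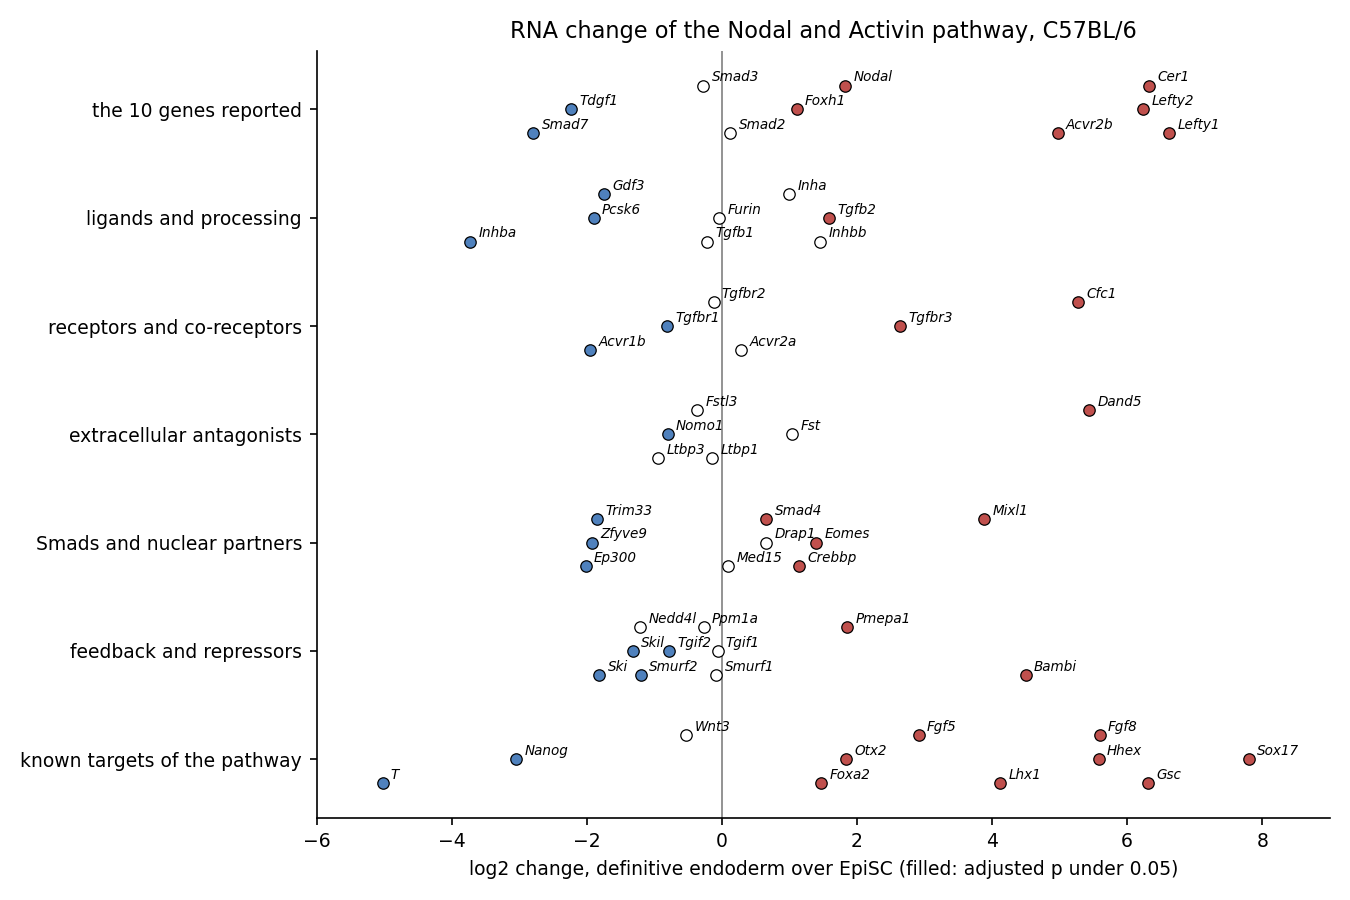
log2 change of RNA, DE over EpiSC in B6, for the 10 genes reported (top row) and 50 of the 51 other pathway genes tested, by list. Filled points passed an adjusted p under 0.05 (red higher, blue lower); targets lie mostly to the right, and the other lists hold points on both sides.

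Accessibility near the 10 genes was compared in the same states. Of the 84 peaks, 76 passed the filter on low counts and were tested; 31 rose and 15 fell, and 46 had groups that did not overlap. Over all 113870 peaks tested, 32.6% were called higher and 25.0% lower, and 53.8% did not overlap, so the share near these genes was close to the background. With scaling to total library size in place of TMM the split was 28 higher and 24 lower, and without EpiSC replicate 51 it was 30 and 25. The peaks named here are those over a gene start and the largest called change at each gene; others are marked as chosen after their values were seen.

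**Figure D3:**
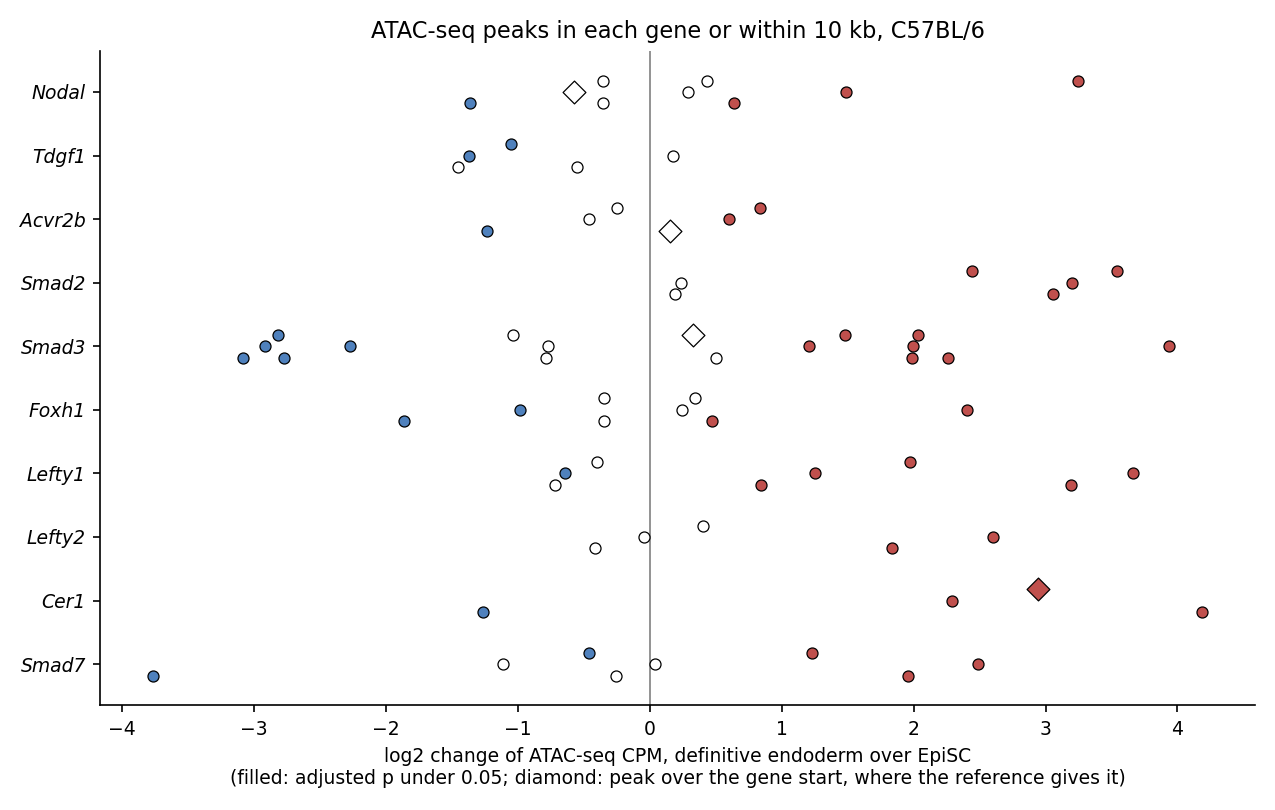
log2 change of ATAC-seq CPM, DE over EpiSC in B6, for the 76 tested peaks in each gene or within 10 kb. Filled points passed an adjusted p under 0.05, and diamonds are peaks over a gene start, which was known for 5 genes only (not Lefty1, Lefty2, Foxh1, Smad2 and Smad7). Of the 4 diamonds, that of Cer1 is filled, at 2.95.

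At Nodal, 3 of 9 tested peaks rose and 1 fell. The peak over the start and the printed promoter (chr10:61417838-61418057) measured 13.9, 10.2, 14.5 and 11.3 CPM in EpiSC replicates 1, 4, 44 and 51 and 7.20, 8.72, 11.5 and 5.19 CPM in DE replicates 2, 4, 44 and 51. Its log2 change of -0.57 (SE 0.26, adjusted p = 0.065) was not called, while the RNA rose. Other settings placed it at -0.47 to -0.83. The fall passed the threshold with RLE scaling (adjusted p = 0.0432 by edgeR), total library size (0.0115), no filter (0.0455) and DESeq2 (0.0491). It also passed in edgeR without DE replicate 4 or 44 or EpiSC replicate 4 or 51 (adjusted p 0.00799 to 0.0473). The next peaks inside the gene, chosen after their values were seen, went up: chr10:61418139-61418370 from 12.6 ± 1.52 to 19.5 ± 0.837 CPM (SD, n = 4 each; log2 change 0.64, adjusted p = 0.00736) and chr10:61419147-61419451 from 13.2 ± 2.79 to 37.4 ± 2.10 CPM (SD, n = 4 each; log2 change 1.49, adjusted p = 4.65e-07). The largest change was beyond the gene at chr10:61430236-61430404, at 0.31 to 1.00 CPM in EpiSCs and 5.10 to 8.85 CPM in DE (log2 change 3.25, adjusted p = 3.90e-06).

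Of the 4 genes with a known start and a tested peak over it (Nodal, Cer1, Smad3 and Acvr2b), Cer1 was the only one whose start peak was called in the main test. At chr4:82885029-82885394, which covers the start and the printed promoter, EpiSC replicates measured 7.68, 7.41, 5.36 and 2.32 CPM and DE replicates 50.6, 44.3, 46.9 and 36.6 CPM. The lowest EpiSC and the lowest DE value were both in replicate 51, as in the RNA. The log2 change was 2.95 (SE 0.25, adjusted p = 9.32e-09). A peak 6662 bp from the gene, chr4:82891813-82892003, had 0, 4, 0 and 4 counts in EpiSCs and 18 to 51 in DE (log2 change 4.19, adjusted p = 5.74e-06). In all, 3 of 4 tested peaks at Cer1 rose and 1 fell. A further peak, chr4:82879206-82879281, was too low for the test, with 0, 2, 0 and 1 counts in EpiSCs and 9 to 19 in DE.

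At Lefty1, 5 of 8 tested peaks rose and 1 fell. The largest change was at chr1:180929767-180930026, 4996 bp outside the gene, with 1.76, 5.81, 2.55 and 0.93 CPM in EpiSCs and 40.6, 34.1, 40.8 and 36.3 CPM in DE (log2 change 3.66, SE 0.33, adjusted p = 3.76e-08). The peak over the end of the gene with the lower coordinate, chr1:180934457-180935191, chosen after its values were seen, measured 8.32 to 18.9 CPM in EpiSCs and 115 to 147 CPM in DE. Its log2 change was 3.20 (adjusted p = 3.66e-10). In CPM, which take no account of the width of a peak, it was the highest of the 84 in DE.

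Lefty2 had no peak in the gene or within 2 kb of it in either table. Of the 5 tested peaks within 10 kb, 2 rose and none fell. The larger rise was at chr1:180883973-180884320, with 5.12, 4.51, 5.36 and 0.31 CPM in EpiSCs and 27.6, 20.1, 26.0 and 17.6 CPM in DE (log2 change 2.60, SE 0.40, adjusted p = 2.98e-05). EpiSC replicate 51 stood apart there at 0.31 CPM, and without it the log2 change was 1.99. DE replicate 51, low in Lefty2 RNA, was the lowest of its group at this peak too, and the groups did not overlap. At the other peak that rose, chr1:180902953-180903276, named after its values were seen, replicate 51 was not the lowest. It measured 45.5 CPM there, against 41.4, 50.5 and 39.5 CPM in DE replicates 2, 4 and 44.

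Tdgf1 was the one gene of the 10 with falls and no rise among its tested peaks, 2 of 5. The larger fall was at chr9:110947250-110947384, 1092 bp upstream of the gene, from 6.72, 7.41, 7.91 and 11.2 CPM in EpiSCs to 3.29, 4.94, 1.72 and 2.88 CPM in DE (log2 change -1.37, SE 0.34, adjusted p = 0.00182). The other, chr9:110946589-110946888, changed by -1.05 (adjusted p = 5.64e-04). No peak of this table covered the start of Tdgf1.

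Smad7 had the largest fall of accessibility near any of the 10 genes. The peak chr18:75360878-75361225, 6140 bp outside the gene, measured 41.0, 30.8, 39.8 and 57.6 CPM in EpiSCs and 3.70, 1.97, 2.29 and 5.19 CPM in DE (log2 change -3.76, SE 0.27, adjusted p = 1.17e-09). Within the gene, by contrast, 3 peaks rose. Altogether 3 of 8 tested peaks at Smad7 rose and 2 fell.

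At Smad2, whose RNA was not called, 4 of 6 tested peaks rose and none fell, and all 4 lie in the gene. The largest, chr18:76245665-76245919, measured 0.93 to 4.11 CPM in EpiSCs and 25.3 to 38.2 CPM in DE (log2 change 3.54, SE 0.31, adjusted p = 1.40e-08). Smad3 had the most peaks, 17 tested, of which 7 rose and 5 fell. Its start peak, chr9:63757973-63758503, was not called (log2 change 0.33, SE 0.15, adjusted p = 0.065). The largest rise at Smad3, chr9:63705129-63705273, rests on 0, 7, 0 and 0 counts in EpiSCs and 7 to 40 in DE (log2 change 3.94, adjusted p = 7.33e-05).

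At Acvr2b the start peak (chr9:119401859-119402222), which covers the printed promoter, was already open in EpiSCs. It measured 16.2, 19.9, 18.9 and 23.6 CPM in EpiSCs and 20.0, 28.1, 16.6 and 22.8 CPM in DE, a log2 change of 0.15 (SE 0.20, adjusted p = 0.524) beside an RNA rise of 31.5-fold. With total library size the sign turned (-0.07). Of 6 tested peaks at Acvr2b, 2 rose by at most 0.84 and 1 fell. That fall, at chr9:119425298-119425485 (log2 change -1.23, adjusted p = 0.0408), was lost without DE replicate 2 (adjusted p = 0.0863), DE replicate 44 (0.12) or EpiSC replicate 1 (0.164). At Foxh1, 2 of 8 tested peaks rose and 2 fell, with the largest change at chr15:76667699-76667781 (log2 change 2.40, adjusted p = 2.27e-04), where levels were 0.48 to 1.28 CPM in EpiSCs and 3.46 to 5.72 CPM in DE.

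Among EpiSCs, the strains were compared in a separate table of 12 RNA-seq libraries with its own scaling, so B6 values differ slightly from those above. In PWK, Lefty2 was higher than in B6 and Tdgf1 lower, and the other 8 genes were not called. Lefty2 measured 33.4, 13.0, 27.5, 19.4 and 10.0 CPM in B6 replicates 1, 2, 4, 44 and 51 and 61.7, 79.1 and 58.6 CPM in the PWK libraries. Every PWK library was above every B6 library. The means were 20.6 ± 9.79 (SD, n = 5) and 66.4 ± 11.0 CPM (SD, n = 3), with a log2 change of 1.69 (SE 0.33, adjusted p = 0.00407).

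Tdgf1 measured 1035, 671, 758, 451 and 941 CPM in B6 and 330, 338 and 334 CPM in PWK. The PWK libraries were alike and all below B6 (log2 change -1.21, SE 0.22, adjusted p = 0.00267). The copy Tdgf1-ps1 had 534 to 602 counts in PWK against 8446 to 9837 for Tdgf1. The 1 gene higher and 1 lower of 10 stand beside all 14822 genes tested, of which 12.0% were called higher and 14.5% lower, and 32.1% did not overlap. PWK reads were counted on mm10, whose sequence is that of C57BL/6, and the effect of sequence differences on the counts was not tested.

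None of the remaining genes was called between PWK and B6 in the main test. Nodal measured 78.0, 108 and 93.4 CPM in PWK and 46.7 to 102 CPM in B6 (log2 change 0.47, SE 0.24, adjusted p = 0.178), and it was called without B6 replicate 51, the highest of its group (log2 change 0.67, adjusted p = 0.0257). Cer1 measured 17.0 to 43.9 CPM in PWK within the B6 range of 3.76 to 167 CPM (log2 change -1.55, SE 0.98, adjusted p = 0.268). This change was larger in size than that of Tdgf1 but was not called, given the wide spread in B6. Foxh1 and Smad7 each passed the threshold when one B6 library was left out, with adjusted p = 0.0414 without replicate 1 and adjusted p = 0.0307 without replicate 4, both lower in PWK. Lefty1, Smad2, Smad3 and Acvr2b had log2 changes of 0.13, -0.04, -0.07 and -0.16, with standard errors of 0.11 to 0.56.

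**Figure D4:**
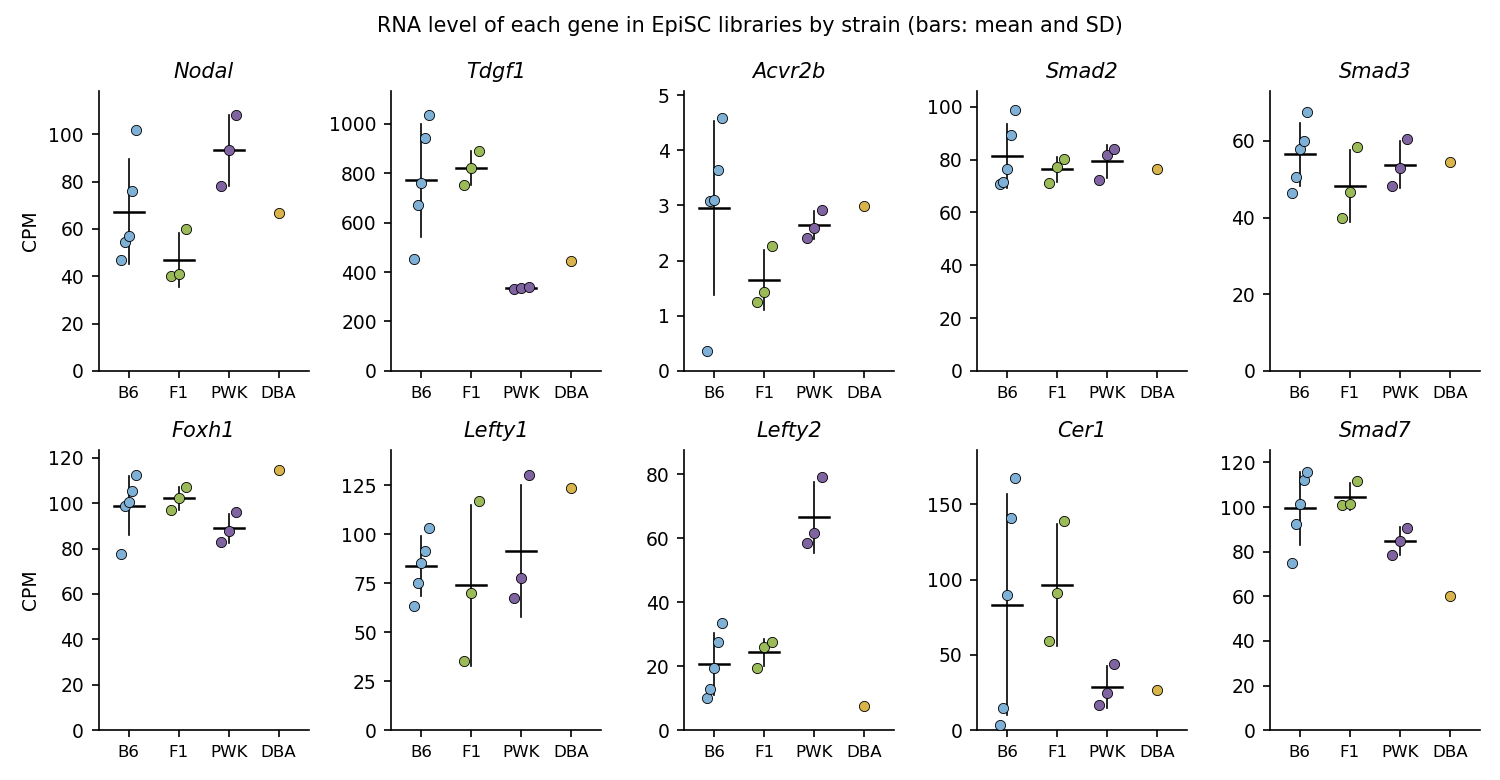
CPM of each of the 10 genes in EpiSC libraries of B6 (5), F1 (3), PWK (3) and DBA (1), with mean and SD as bars where there is more than 1 library. PWK lies apart from B6 in Lefty2 (above) and Tdgf1 (below).

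In F1 EpiSCs none of the 10 genes was called against B6, and none had an unadjusted p under 0.05 in edgeR or was called by DESeq2. Of all genes tested, 1.34% were called higher and 1.50% lower in this comparison. That background rests on single libraries: 421 genes were called in all, 1952 without B6 replicate 1, 2 without F1 replicate 4 and 0 without the F1 library that has no number or with B6 and F1 fitted alone, while DESeq2 called 2036. The largest difference was in Acvr2b, at 1.42, 2.27 and 1.25 CPM in F1 replicates 4, 9 and the one without a number (log2 change -0.84, SE 0.58, adjusted p = 0.412). Without B6 replicate 1, the library with 0.36 CPM, it was called (log2 change -1.09, adjusted p = 0.0298). Nodal was 39.9, 60.1 and 41.0 CPM in F1 (log2 change -0.52, SE 0.25, adjusted p = 0.239).

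The DBA library has no replicate, so its values carry no test. Its label gives the strain as DBA but carries a replicate number that a PWK sample also has; the strain label was followed. Lefty2 was at 7.55 CPM, below all 11 other EpiSC libraries and at the other end from PWK (log2 ratio to the B6 mean -1.45). Smad7 at 59.9 CPM was also below all others, and Foxh1 at 115 CPM above all others. Cer1 was at 26.9 CPM (log2 ratio -1.63) inside the B6 range, and Tdgf1 at 443 CPM lay just under the lowest B6 library. With Lefty2 and Cer1, 2 of the 10 genes were past a ratio of 2, against 9.50% of 13127 genes with at least 1 CPM. The order of the group means was PWK, B6, DBA, F1 for Nodal and PWK, F1, B6, DBA for Lefty2. For Tdgf1 it was F1, B6, DBA, PWK, and for Cer1 F1, B6, PWK, DBA. Neighbours in these orders overlapped in range, with 5 exceptions: DBA and F1 for Nodal, PWK and F1 and also B6 and DBA for Lefty2, and B6 and DBA and also DBA and PWK for Tdgf1.

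The other pathway genes gave 4 higher and 6 lower in PWK among 50 tested, and none in F1. These counts stand beside 12.0% called higher and 14.5% called lower among all genes in PWK. The PWK differences included Zfyve9 (log2 change -0.98, adjusted p = 5.27e-05), Ppm1a, a Smad phosphatase (-0.82, adjusted p = 4.25e-04), the repressors Skil (0.54) and Tgif2 (-0.42), and the target Wnt3 (0.99). Tgfbr2 (1.12, adjusted p = 0.0326) and Tgfbr3 (0.75, adjusted p = 0.0445) were higher in PWK. Each lost its call when most single libraries were left out, with adjusted p up to 0.106 and 0.154, and Tgfbr2 also when PWK and B6 alone were fitted (adjusted p = 0.061).

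Feeder marker sums differed between the strains too. They were 2170 to 3048 CPM in PWK, 1502 CPM in DBA, 144 to 221 CPM in F1 and 69.1 to 2751 CPM in B6. B6 replicate 51 at 2751 CPM lay within the PWK range, and it had 10.0 CPM of Lefty2, the lowest of the B6 libraries, and 941 CPM of Tdgf1, the second highest of them. This is 1 library, and the part of feeder RNA in the PWK differences of Lefty2 and Tdgf1 was not tested. Its Nodal of 102 CPM was within the PWK range, and its Cer1 of 3.76 CPM was the lowest of the 12 libraries. Nodal was 78.0 CPM or more in the 4 libraries with the highest feeder sums and 76.2 CPM or less in the other 8; the part of feeder RNA in the Nodal values was not tested.

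**Figure D5:**
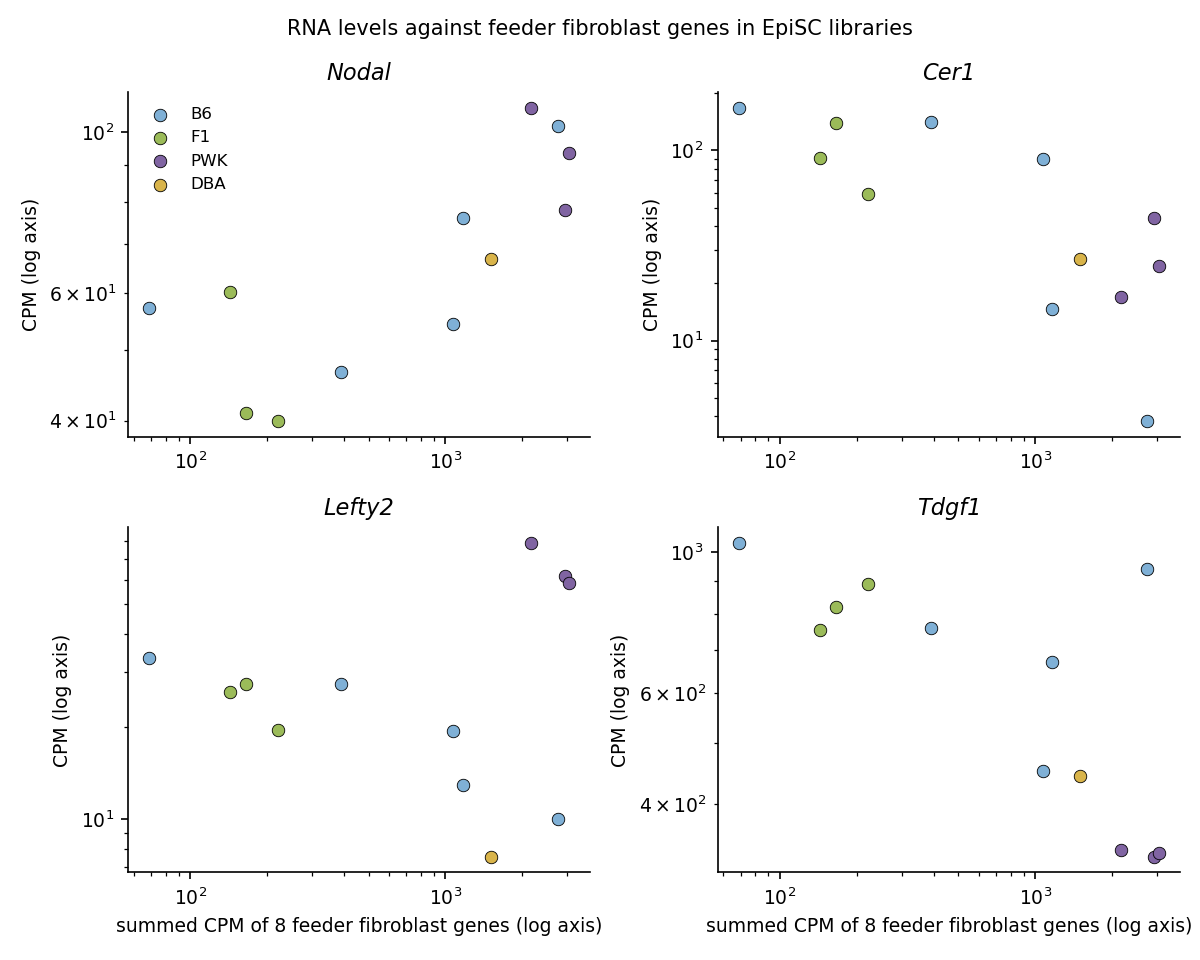
CPM of Nodal, Cer1, Lefty2 and Tdgf1 (log axis) against the summed CPM of 8 feeder fibroblast genes (log axis) in 12 EpiSC libraries, coloured by strain. The 4 libraries with the most feeder RNA have the highest Nodal values, 78.0 to 108 CPM.

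The genes whose log2 CPM was most like that of Nodal over the 12 EpiSC libraries were Btbd19, Wnt8a, Flcn, Scn2b and Gcc1, with Pearson correlations of 0.96, 0.95, 0.94, 0.94 and 0.94 among 14822 genes. These 12 points share strain, feeder content and scaling, so the values are descriptions. Of the other 9 genes reported, Lefty1 was closest to Nodal at 0.43 and Cer1 farthest at -0.80. The genes most like Cer1, listed after its spread had been seen, began with Cfc1 at 0.99 and Tph1 at 0.97.

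Accessibility near the 10 genes was also compared between the strains, with only 2 PWK libraries. Of 94 peaks, 84 were tested between PWK and B6 EpiSCs; 2 were higher and 2 lower in PWK, and 14 did not overlap. Over all 137667 peaks tested, 1.42% were called higher and 3.68% lower, and 26.3% did not overlap. Of the 4 calls, 3 were at Nodal. The start peak of Nodal (chr10:61417818-61418057 in this table) measured 14.0, 10.9, 14.7 and 11.3 CPM in B6 replicates 1, 4, 44 and 51 and 3.57 and 3.38 CPM in PWK, below every B6 library. The log2 change was -1.86 (SE 0.32, adjusted p = 0.00284), and the call held without each library in turn. As for RNA, PWK reads were set against mm10, and the effect of sequence differences on the peak counts was not tested.

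The neighbouring peak at Nodal, chr10:61418121-61418323, named here after its values were seen, was lower as well (12.5 ± 1.27 CPM in 4 B6 libraries, 5.71 and 3.16 CPM in PWK; log2 change -1.52, adjusted p = 0.0130). Without B6 replicate 1 only 1 peak was called lower, the start peak. A peak before the gene, chr10:61413641-61413743, was higher in PWK at 4.64 and 6.20 CPM against 0.42 to 1.89 CPM in B6 (log2 change 2.52, adjusted p = 0.0237). That call was lost without B6 replicate 4, 44 or 51 or the PWK replicate without a number (adjusted p 0.0517 to 0.127). Nodal RNA, in contrast, was not called between these strains. At Foxh1, chr15:76666535-76666713 was higher in PWK (3.79 ± 1.92 CPM in 4 B6 libraries, 18.7 and 12.7 CPM in PWK; log2 change 2.01, adjusted p = 0.00654).

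No peak near Lefty2 or Tdgf1, the genes with a different RNA level, was called between PWK and B6; 6 and 8 were tested. The peak over the start of Tdgf1, chr9:110946067-110946174, had a log2 change of 0.88 (SE 0.47, adjusted p = 0.371). The start peaks of Smad3 (log2 change -0.35, adjusted p = 0.404) and Acvr2b (log2 change -0.05, adjusted p = 0.946) were not called. In the DBA library the start peak of Nodal measured 20.3 CPM, above the 4 B6 libraries, and 14 of the 82 peaks with at least 1 CPM were past a ratio of 2, against 26.5% of 144980 peaks.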

How the data were processed

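The deposited tables hold raw counts per gene (RNA-seq) or per peak (ATAC-seq), not normalized by the authors. Per the submitters' processing notes, reads were set against mm10; Salmon, featureCounts and DESeq2 are named for RNA-seq, and fastp, Bowtie2, MACS2, featureCounts and DESeq2 for ATAC-seq. Roles, annotation and use of strand are not given in the sources used here, nor whether peak starts count from 0 or 1. Peak positions are printed as deposited.

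Columns were matched to samples by the strain and replicate in their names; 17 columns of other samples were not used, and 3 PWK DE samples are not analysed here. Of 30 samples, 27 were used. In the PWK and F1 groups, a column whose name matches no replicate number of the labels was placed by strain only. It is the one called without a number here, and in PWK its name differs between RNA-seq and ATAC-seq. The 5 B6 EpiSC RNA columns are the same in both gene tables.

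Features were filtered with filterByExpr, scaled by TMM and tested with edgeR 4.0.16 (R 4.3.3, robust glmQLFit and glmQLFTest; two-sided), with Benjamini-Hochberg adjustment over all features tested and calls at an adjusted p under 0.05. The EpiSC strains shared 1 fit; DE and B6 EpiSCs were fitted alone. CPM are counts over the TMM-scaled library size. DESeq2 1.42.0, other scalings and filters, other windows around the genes, leaving out each library and a replicate block were alternatives. The scripts were tested on simulated data. A library without replicates was described by its ratio to the B6 mean among features with at least 1 CPM. Replicates of a group differed by more than counting noise (chi-square per feature at least 2.77).

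The 10 genes, the pathway lists and the markers were chosen with earlier results of these data known. Named peaks are those over a gene start and the largest called change at each gene; named pathway genes are up to 3 per list and comparison with the largest called changes at a mean of at least 1 CPM. Nanog, T, Fgf5, Otx2, Tgfbr1, Acvr2a and Smad4, the genes most like Cer1 and the peaks so marked were named after their values were seen. The values of 1 list gene are not reported here, though it is in the counts and medians of its list. Sequences and gene starts come from RefSeq, GRCm38.p6.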

Additional observations from a re-analysis of the deposited data

Results flagged for a closer look

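In 5 of 82 groups of 4 or 5 libraries, 1 library stood far from the others of its group; chance alone flags about 1 in 20 groups. In B6 EpiSCs, replicate 51 had 0.3098 CPM at the Lefty2 peak chr1:180883973-180884320, against 4.51 to 5.36 CPM in the other 3. Replicate 4 of B6 EpiSCs had 0.7011 CPM at the Smad3 peak chr9:63705129-63705273, where the other 3 had no count. In DE RNA, replicate 2 was the highest library for 3 genes of the pathway lists. Cfc1 stood at 393.8 CPM against 190.3 to 222 CPM, Fgf8 at 1225 CPM against 646 to 694.8 CPM, and Tgfb2 at 30.16 CPM against 16.0 to 17.0 CPM. Without DE replicate 2 the log2 changes from EpiSCs to DE were 4.99 for Cfc1, 5.33 for Fgf8 and 1.33 for Tgfb2, all still called by edgeR.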

How the results depend on the processing

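The 6 higher and 2 lower genes of the DE comparison kept their number under other scalings, DESeq2, no filter and every left-out library; with at least 10 counts in every library, Acvr2b was not tested and 5 genes were higher. Against PWK, leaving out single libraries gave 1 to 2 genes higher and 1 to 2 lower, and against F1 0 to 1 lower. Near the genes, peaks higher in DE numbered 14 with at least 10 counts in every library, 59 within 50 kb and 21 within 2 kb; those lower numbered 24 with total library size, 5 with at least 10 counts, 37 within 50 kb and 12 within 2 kb, and 15 to 25 as each library was left out. The median log2 change over all peaks was shifted by -0.22 when libraries were scaled by their totals. For PWK peaks, 0 were higher with at least 10 counts and 1 within 2 kb, 4 were lower within 50 kb, and left-out libraries gave 1 to 3 higher and 1 to 2 lower. Wider and narrower windows hold more and fewer peaks, and a stricter filter tests fewer; other causes were not tested.

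Signs turned only for changes that were not called. With total library size, the log2 change of Smad2 between PWK and B6 was 0.0193, that of the Acvr2b start peak -0.0677 in DE and 0.0264 in PWK. As each library was left out, the PWK changes ran from -0.0922 to 0.0413 (Smad2), -0.17 to 0.0026 (Smad3), -0.45 to 0.0536 (Acvr2b) and -0.22 to 0.31 (Lefty1). The F1 changes ran from -0.14 to 0.0241 (Smad2), -0.15 to 0.66 (Cer1), -0.0106 to 0.14 (Smad7), -0.0514 to 0.26 (Tdgf1) and -0.67 to 0.16 (Lefty1). The Acvr2b start peak ran from -0.0768 to 0.23 in DE and from -0.35 to 0.19 in PWK.

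Replicate numbers are shared between EpiSCs and DE. Correlations of same-numbered libraries were 0.0915 to 0.231 in RNA, all positive, and -0.0073 to 0.063 in ATAC-seq. In RNA, DE replicates 2, 44 and 51 correlated best with their own number, and replicate 4 with EpiSC replicate 1 (0.129). In ATAC-seq, DE replicates 4 and 51 correlated best with their own number and replicate 44 did not. The main tests took no account of replicate numbers. With a replicate block, 6 genes were higher and 2 lower, and 25 peaks higher and 11 lower; the same libraries without the block gave 28 and 13 peaks. The fall of the Acvr2b peak chr9:119425298-119425485 was called neither with the block (log2 change -0.74, adjusted p = 0.38 by edgeR) nor in the same libraries without it (-0.64, adjusted p = 0.374). ATAC-seq totals of 3751526 to 9571127 counts limit what could be seen at peaks of a few counts.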
